A study of Homo sapiens with 18 samples.

Results

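The long noncoding RNAs MALAT1, NEAT1, TUG1, MIAT, OIP5-AS1, GAS5, SNHG1 and SNHG5 were followed through all 18 RNA-sequencing libraries of the study. They were chosen by name, and each symbol matched a single row, so the 8 rows are 8 of the 57905 Ensembl gene IDs counted. All 8 passed the filter on low counts in every comparison. The RNA came from BE(2)-m17 cells, a human neuroblastoma line. Every library carried the vector pSBbi-Hyg-APP, which drives the amyloid precursor protein, and a second vector that was either empty (pSBbi-Pur, labelled Puro) or held a codon-optimized ABCC1 (pSBbi-Pur-ABCC1(WT)), an ATP-driven export pump. Both vectors are Sleeping Beauty transposons that insert at many sites, and each line was a drug-selected pool of such cells. RNA was taken on the fourth day after plating, in 3 experiments with 3 libraries of each line.

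Libraries of the first experiment (RNA1) came from the TruSeq RNA Library Prep Kit v2, which selects polyadenylated RNA, although one field of its labels names the kit of the later experiments. Those of the second and the third (RNA2 and RNA3) came from the SMARTer Stranded Total RNA-Seq kit in its v2 Pico form, which does not select for a poly(A) tail. The labels only number the experiments, and the study names cryopreserved cells and then newly transfected cells in that order. Kit, sequencing instrument and culture differ together between the first and the later experiments, so their parts in a difference cannot be told apart. In bulk RNA, fewer cells that make an RNA and less of it per cell also cannot be told apart.

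Most messenger and long noncoding RNAs are cut behind an AAUAAA-like signal and given a poly(A) tail. MALAT1 and the long form of NEAT1 are known exceptions. RNase P cuts them behind an A-rich tract that folds back on U-rich stretches into a triple helix, and the tail is encoded in the gene. MALAT1 gathers in nuclear speckles, stores of splicing factors. NEAT1 is the scaffold of paraspeckles, bodies that hold RNA-binding proteins, and its short form does carry a poly(A) tail. TUG1 and MIAT are spliced and largely nuclear, and OIP5-AS1 (cyrano) is spliced and abundant in neural cells. GAS5, SNHG1 and SNHG5 are the hosts of small nucleolar RNAs (snoRNAs), which are released from their introns while the spliced host RNA is degraded through nonsense-mediated decay.

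The 3′ ends of the members are shown because the first experiment selected for poly(A) tails. They were taken from the longest GENCODE release 29 transcript of each gene (GRCh38). The tract AAAAAGCAAAA, searched on the transcript strand, is in capitals for MALAT1 (chr11:65506006-65506146, plus strand) and NEAT1 (chr11:65445430-65445540, plus strand):
MALAT1: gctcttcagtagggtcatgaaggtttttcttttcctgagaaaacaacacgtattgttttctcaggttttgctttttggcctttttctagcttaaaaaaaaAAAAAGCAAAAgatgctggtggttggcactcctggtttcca
NEAT1: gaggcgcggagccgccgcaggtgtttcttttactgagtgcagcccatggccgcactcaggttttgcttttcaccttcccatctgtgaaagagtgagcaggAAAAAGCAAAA
The tract closes the 22743-base NEAT1 transcript. In MALAT1 the annotated 8708-base transcript runs 353 bases beyond it. Of 58632 genes whose longest transcript has at least 50 bases, 0.0324% hold the tract in the last 50 bases, and 0.145% of the 45524 with at least 364 bases hold it in the last 364.

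The last 60 bases of 5 other transcripts are shown with the last AATAAA in capitals, or the last ATTAAA where the final 50 bases hold no AATAAA:
TUG1: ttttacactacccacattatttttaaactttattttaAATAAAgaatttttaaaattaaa
MIAT: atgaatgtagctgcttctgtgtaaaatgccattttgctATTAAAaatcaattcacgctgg
OIP5-AS1: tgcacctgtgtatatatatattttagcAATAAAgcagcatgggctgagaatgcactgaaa
SNHG1: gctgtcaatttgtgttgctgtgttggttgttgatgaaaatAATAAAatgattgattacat
SNHG5: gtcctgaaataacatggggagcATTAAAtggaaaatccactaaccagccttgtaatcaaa
Either hexamer lay in the last 50 bases of 6 of the 7 RNAs examined and of 39.3% of all genes. NEAT1 was the member without one there, and the annotated end of MALAT1 had AATAAA starting 23 bases from the end.

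In the files' GRCh37 annotation MALAT1 (ENSG00000251562, chr11:65265233-65273940, plus strand) and NEAT1 (ENSG00000245532, chr11:65190245-65213011, plus strand) are single exon blocks of 8708 and 22767 bases. TUG1 (ENSG00000253352, chr22:31366663-31375381, plus strand), MIAT (ENSG00000225783, chr22:27042392-27072438, plus strand) and OIP5-AS1 (ENSG00000247556, chr15:41576188-41601901, plus strand) have 6793, 11590 and 12009 exon bases. The merged exons of GAS5 (ENSG00000234741, chr1:173833038-173838020, minus strand) cover 3631 of its 4983 bases, and those of SNHG1 (ENSG00000255717, chr11:62619460-62623386, minus strand) cover 3792 of 3927, so reads from much of the sequence between the exons of 1 spliced form fall into the host's count. SNHG5 (ENSG00000203875, chr6:86370710-86388451, minus strand) has 2206 exon bases. The snoRNAs inside the 3 host genes were not analysed here, since rows that carry their names include copies on other chromosomes. Counting ignored strand, and exons of other genes on the opposite strand cover 18.5% of the exon bases of MIAT, 8.04% and 3.89% of TUG1, 4.55% of MALAT1, 3.63% of OIP5-AS1 and 1.16% of GAS5. Reads from those partners cannot be told apart from the member's own.

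Library depth ran from 8866994 to 57937653 assigned read pairs. The 8 RNAs together took 0.189 to 0.208% of them in the first experiment, 0.642 to 0.998% in the second and 0.712 to 1.04% in the third. The vector ABCC1 had 0 to 15 counts in the Puro libraries and 51035 to 594404 in the ABCC1 libraries, as labelled. All 8 noradrenergic neuroblastoma markers (HAND2, MYCN and others) were detected in every library, with summed levels of 4449 to 6724 CPM (counts scaled by library size). MYCN carried most of this sum, with a mean of 4367 CPM after scaling over all libraries, and HAND2 came next with 641. By the tests described below, 6 of the 8 were lower in the second experiment than in the first (19.7% of all genes) and 7 in the third (23.4%). In the same contrasts 0 and 1 were higher (71.2% and 71.6%).

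Among the 8 RNAs MALAT1 had the largest difference between the 2 kinds of library. Its level, in CPM per kb of exon after trimmed mean of M values (TMM) scaling over all 18 libraries, ran from 26.0 to 33.9 with a median of 30.9 in the first experiment. It ran from 566 to 1172 with a median of 783 in the second, and from 393 to 773 with a median of 511 in the third. All 12 total RNA libraries lay above all 6 poly(A) libraries. As a share of all assigned read pairs MALAT1 took 0.0156 to 0.0209% in the first experiment, 0.433 to 0.778% in the second and 0.594 to 0.917% in the third. Its share of the summed counts of the 8 RNAs was 8.21 to 10.9% in the first experiment against 68.1 to 79.0% in the second and 83.3 to 88.6% in the third.

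**Figure D1:**
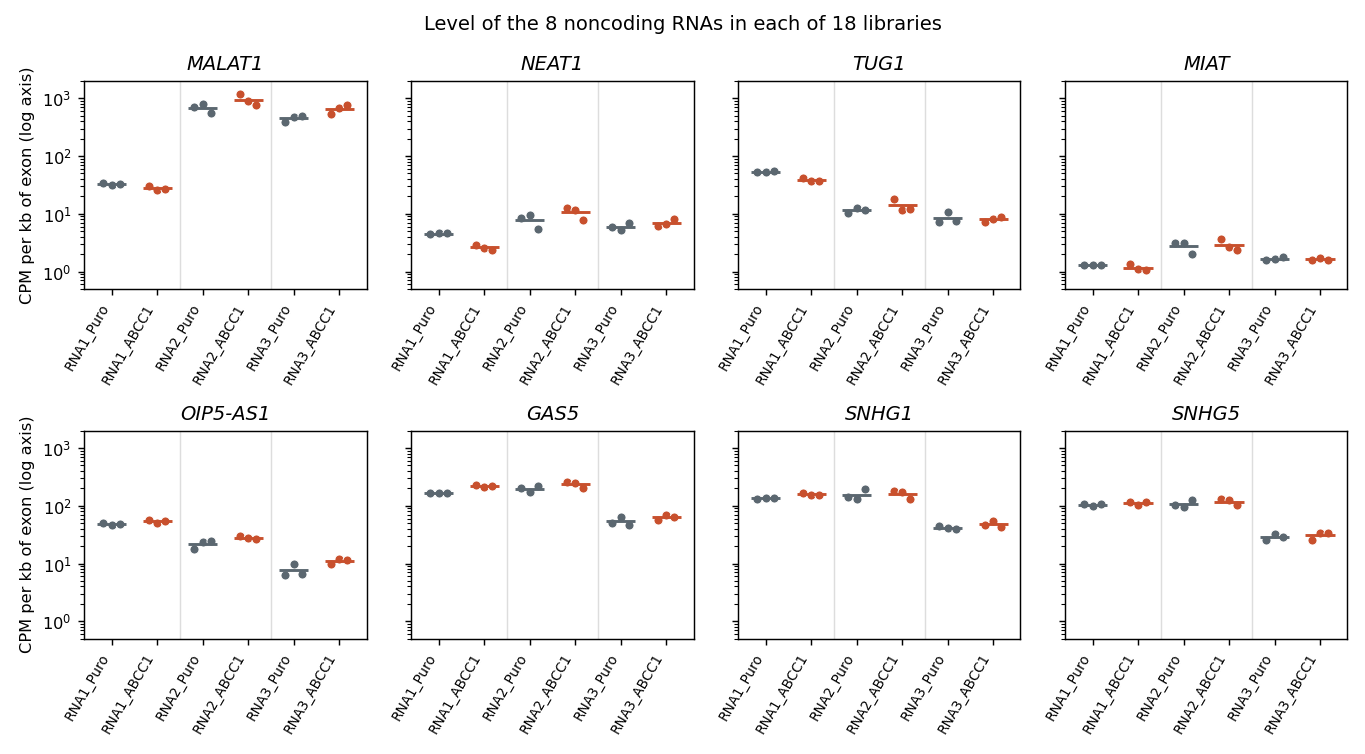
Level of each RNA in CPM per kb of exon (log axis, TMM scaling over all libraries) in the 6 groups, 1 point per library and a bar at the mean of 3. MALAT1 lies at 26.0 to 33.9 in the first experiment and at 393 to 1172 in the other 2, TUG1 lies lower there, and GAS5, SNHG1 and SNHG5 lie lower in the third with this scaling, by an amount that depends on the reference (log2FC to the first -0.18 to -0.33 relative to expressed protein-coding genes, -1.10 to -1.24 relative to all).

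The log2 fold change (log2FC) between experiments depended on the scaling, and most of the genes tested were called higher in the total RNA libraries. Over 46225 genes tested, 71.2% were called higher and 19.7% lower in the second experiment than in the first, 71.6% higher and 23.4% lower in the third than in the first, and 19.5% higher and 19.6% lower in the third than in the second. A call means an adjusted p of at most 0.05 (edgeR's quasi-likelihood test, Benjamini-Hochberg over all genes). Of the calls in the third against the second experiment, 49.8% were higher with TMM, 79.2% with relative log expression (RLE) and 91.5% with the protein-coding total as library size. For the third against the first these shares were 75.4%, 78.9% and 89.3%. Differences are therefore also given after subtracting the median log2FC of 10091 protein-coding genes with a mean of at least 10 CPM. That median was -0.87 for the second against the first experiment, -1.53 for the third against the first and -0.52 for the third against the second. After subtraction, the values of the 8 RNAs under the 3 scalings differed only from the second decimal on. The choice of reference mattered more, because the median over all protein-coding genes tested, low ones included, was -0.036, -0.62 and -0.16. Values against the median are therefore given for expressed genes first and for all protein-coding genes beside them.

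MALAT1 was 4.75 ± 0.17 (log2FC ± SE, 6 libraries against 6) higher in the second than in the first experiment (adjusted p = 1.69e-31, edgeR) and 4.18 higher in the third (adjusted p = 1.79e-29, edgeR). Relative to the protein-coding median this was 5.62, or 49.2-fold, and 5.71, or 52.5-fold (27.5-fold and 27.8-fold against all protein-coding genes). Of the 10091 protein-coding genes, 88 and 116 had a larger log2FC. Among all 46225 genes tested 36.9% and 51.0% did, and the medians of all genes were 3.55 and 4.31. NEAT1 had 2.40 to 4.62 CPM per kb in the first experiment, 5.43 to 12.7 in the second and 5.30 to 7.99 in the third, so its groups did not overlap either, with background included. In the library with 5.30, the level per kb of silent olfactory receptor genes (given below) equalled 17.8% of NEAT1, more than the gap to 4.62. The log2FC of NEAT1 was 1.41 ± 0.13 (adjusted p = 9.51e-15, edgeR) and 0.91 (adjusted p = 3.40e-09, edgeR), which is 4.87-fold and 5.43-fold above the protein-coding median (2.72-fold and 2.88-fold against all protein-coding genes). MIAT, with 1.04 to 1.34 CPM per kb in the first experiment, had log2FC of 1.20 and 0.43 with background included (adjusted p = 9.20e-14 and 5.36e-04, edgeR), 4.20-fold and 3.90-fold above the median (2.35-fold and 2.07-fold against all protein-coding genes). Without 1 library the value of 0.43 ran from 0.27 to 0.48. Of all genes tested, 66.5 to 72.6% had a larger log2FC than NEAT1 or MIAT. The level per kb of silent olfactory receptor genes equalled 44.9 to 60.9% of the MIAT level in the third experiment. If MIAT carries the same background, it is larger than the 1.35-fold rise of MIAT there with TMM. Both the value and the direction of MIAT in the third experiment are therefore uncertain.

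**Figure D2:**
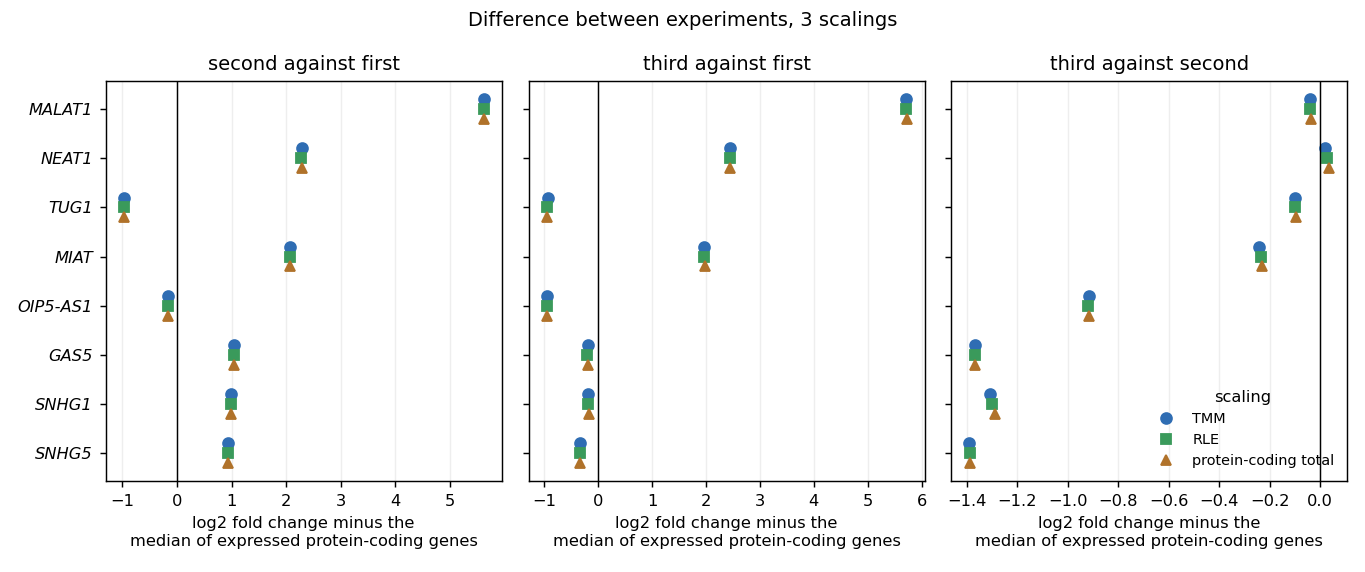
Horizontal axis, log2FC between experiments minus the median of 10091 expressed protein-coding genes, for 3 scalings marked by symbol (the third panel has its own, finer scale). MALAT1 stands at 5.62 and 5.71 in the first panels and near 0 in the third, where GAS5, SNHG1 and SNHG5 stand at -1.29 to -1.39.

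TUG1 and OIP5-AS1 were lower in all 12 total RNA libraries than in all 6 poly(A) libraries. TUG1 had 36.7 to 56.2 CPM per kb in the first experiment, 10.4 to 17.9 in the second and 7.20 to 10.8 in the third. It fell in both, with log2FC of -1.85 and -2.47 (adjusted p = 1.16e-19 and 1.20e-24, edgeR), 1.96-fold and 1.91-fold below the protein-coding median (log2 -1.81 and -1.85 against all protein-coding genes). OIP5-AS1 had 47.1 to 56.4, 18.01 to 30.4 and 6.37 to 11.97 CPM per kb. It fell in both, with log2FC of -1.04 and -2.48 (adjusted p = 4.52e-11 and 1.67e-24, edgeR), but stood within 1.12-fold of the median in the second experiment and 1.93-fold below it in the third (log2 -1.002 and -1.86 against all protein-coding genes). Poly(A) and total RNA libraries thus did not overlap for 5 of the 8 RNAs, 3 higher and 2 lower, against 55.4% of all genes. These levels include background. For MIAT and NEAT1, 2 of the 3 higher ones, the separation of the third experiment from the first depends on it.

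The 3 snoRNA hosts differed most between the second and the third experiment. GAS5 had 168 to 229 CPM per kb in the first experiment, 174 to 261 in the second and 47.4 to 69.4 in the third. SNHG1 had 133 to 167, 131 to 192 and 40.1 to 53.9, and SNHG5 had 99.7 to 118, 94.7 to 129 and 25.4 to 34.0. The first and second experiments overlapped for each host, and with TMM the third lay below both. In the second against the first experiment their log2FC of 0.17, 0.12 and 0.05 were not called with TMM (adjusted p = 0.182, 0.354 and 0.652, edgeR) but were called higher with RLE and with the protein-coding total, and they stood 2.06-fold, 1.99-fold and 1.90-fold above the protein-coding median (1.15-fold, 1.11-fold and 1.07-fold against all protein-coding genes). Without 1 library the log2FC with TMM ran from 0.079 to 0.21 (GAS5), 0.022 to 0.17 (SNHG1) and -0.034 to 0.098 (SNHG5). In the third against the first TMM gave -1.73, -1.71 and -1.86, which is -0.19, -0.18 and -0.33 relative to expressed protein-coding genes and -1.11, -1.10 and -1.24 relative to all of them. Whether the hosts were raised in the second or lowered in the third experiment therefore depends on the reference.

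In the third against the second experiment, both made with the total RNA kit, the hosts fell, with log2FC of -1.89 (GAS5), -1.83 (SNHG1) and -1.91 (SNHG5) and an SE of 0.12 each (adjusted p = 3.82e-19, 1.52e-18 and 3.80e-20, edgeR). This was 2.58-fold, 2.48-fold and 2.62-fold below the protein-coding median, and 95.4 to 96.3% of those genes had a higher log2FC (log2 -1.73, -1.67 and -1.75 against all protein-coding genes). OIP5-AS1 fell by 1.44 (adjusted p = 8.96e-15, edgeR), 1.89-fold below the median (log2 -1.28 against all protein-coding genes). MALAT1 (-0.56), NEAT1 (-0.50), TUG1 (-0.62) and MIAT (-0.76) were also called lower with TMM, which makes 8 of 8. Of all genes tested, 19.6% were called lower and 19.5% higher. With RLE the calls on MALAT1, NEAT1 and TUG1 were lost (adjusted p = 0.247, 0.535 and 0.0636, edgeR), with the protein-coding total MALAT1 (0.23, adjusted p = 0.0248, edgeR) and TUG1 (0.17, adjusted p = 0.0432, edgeR) were called higher instead and NEAT1 and MIAT had values above 0, and relative to the protein-coding median the 4 stood at -0.042, 0.020, -0.098 and -0.24. Against all protein-coding genes they stood at -0.40, -0.34, -0.46 and -0.60.

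The starts of the hosts are shown because their class is known for 5′ terminal oligopyrimidine (5′TOP) starts, a C followed by a run of C and T that ties many RNAs of the translation machinery to growth signals. A C followed by 4 such letters within the first 10 bases, on the transcript strand, is in capitals in the first 30 bases:
GAS5: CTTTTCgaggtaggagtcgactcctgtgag
SNHG5: ggtCTTTTacgtcggccttcgcgagcgtct
SNHG1: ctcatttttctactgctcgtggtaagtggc
GAS5 and SNHG5 matched and SNHG1 did not. The longest transcripts of 9.69% of 58721 genes matched, and 3 of the 21 5′TOP coding mRNAs looked up did.

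Of 22 other snoRNA host genes tested, 20 were called lower and 1 higher in the third than in the second experiment (19.6% and 19.5% of all genes), with a median log2FC of -1.09 against -0.52 for the expressed protein-coding genes and 0.42 for all genes. SNHG29 had -1.52 and SNHG3 -1.23, both called. All 20 5′TOP coding mRNAs tested were called lower (median -1.21), including EEF2 (-1.0), which moves the ribosome along the mRNA, and EEF1A1 (-1.79), which delivers tRNA to it. Nonsense-mediated decay factors, through which host RNAs are turned over, were called lower in 10 of 16 cases (median -0.62), near the -0.52 of the expressed protein-coding genes. These counts depend on the scaling. With the protein-coding total 12 of the 22 hosts were called lower and 5 higher, 13 of the 20 5′TOP mRNAs lower and 3 higher, and 4 of the 16 decay factors lower and 8 higher. With TMM SMG5 had -0.42 (adjusted p = 0.00530, edgeR) and CASC3 -0.21 (adjusted p = 0.181, edgeR).

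RNAs that are made without a poly(A) tail were set beside the members. All 12 replication-dependent histone mRNAs with a row, which end in a stem-loop, were called higher in the second and the third than in the first experiment, with median log2FC of 8.94 and 8.03. H1-5 had 12.65 and 12.02, and H1-4 10.12 and 9.29. All 3 structural RNAs with a row were called higher too (median 10.44 and 9.07), among them TERC, the telomerase RNA (10.44 and 9.07), and SCARNA10 (11.34 and 9.98). These RNAs had few counts in the first experiment, so the fitted values depend on the prior count. MALAT1, at 4.75 and 4.18, was below these medians. Among 21 other long noncoding RNAs 16 and 14 were called higher and 2 and 5 lower, with median log2FC of 1.48 and 1.56, where 71.2% and 71.6% of all genes were called higher and the medians of all genes were 3.55 and 4.31. NORAD had -0.99 and -1.65, and MEG3 0.19 and 0.00279 (adjusted p = 0.190 and 0.985, edgeR). Of the other snoRNA hosts, SNHG3 had 4.73 and 3.499 and SNHG29 -1.61 and -3.13.

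The order of the levels changed with the experiment. In the first it ran from GAS5 (195 ± 28.7 CPM per kb, SD, n = 6 libraries) through SNHG1 (147 ± 13), SNHG5 (109 ± 7.20), OIP5-AS1 (51.2 ± 3.53), TUG1 (46.3 ± 8.67), MALAT1 (30.2 ± 3.04) and NEAT1 (3.59 ± 1.07) to MIAT (1.23 ± 0.126). Only OIP5-AS1 and TUG1 were neighbours whose libraries overlapped. Their order depended on the line, with TUG1 above in Puro (52.2 to 56.2 against 47.1 to 50.5) and below in ABCC1 libraries (36.7 to 42.0 against 51.1 to 56.4). In the second and the third experiments MALAT1 stood first (818 ± 204 and 557 ± 144) and the rest kept their order over both lines, while in the Puro libraries of the third TUG1 had the higher mean (8.49 against 7.57 for OIP5-AS1). GAS5 and SNHG1 overlapped there, as did TUG1 and NEAT1, and in the third also OIP5-AS1 and TUG1.

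**Figure D3:**
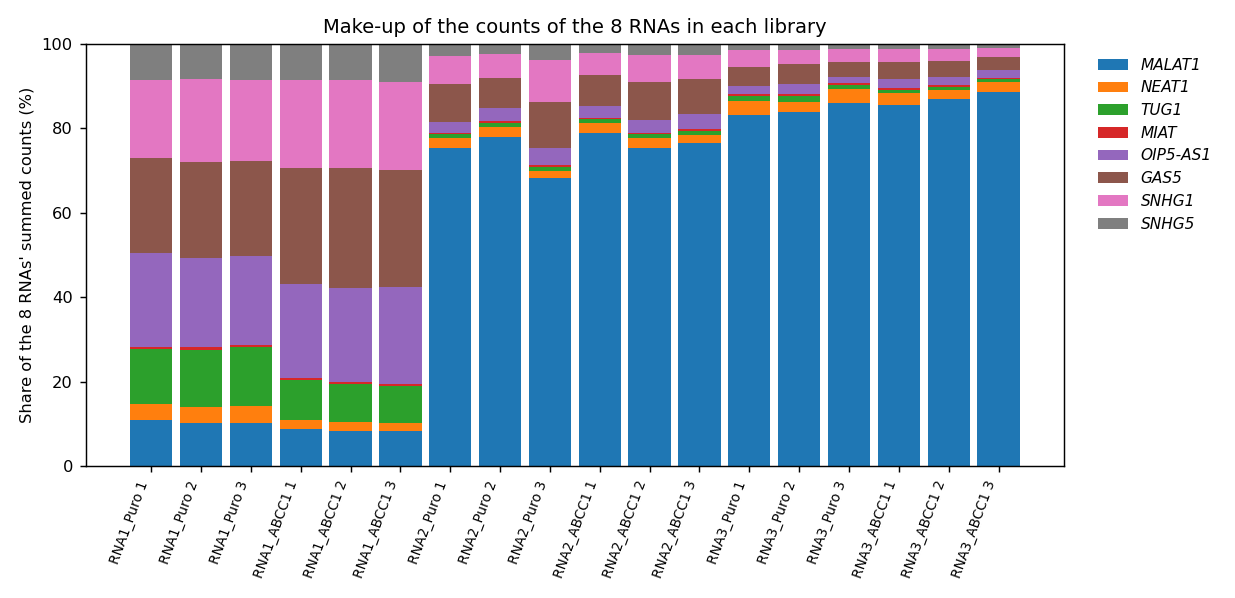
Each bar is 1 library, and its parts are the shares (%) of the 8 RNAs in their summed counts. MALAT1 makes up 8.21 to 10.9% in the 6 libraries of the first experiment and 68.1 to 88.6% in the 12 others.

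Genes that the cells do not express gave the background of each library. The 347 olfactory receptor genes with at most 0.1 CPM per kb in the first experiment had a pooled level of 0.00268 to 0.00309 CPM per kb in Puro and 0.00157 to 0.00228 in ABCC1 libraries there, by library totals. In the second experiment they had 0.621 ± 0.125 (SD, n = 3) in Puro and 0.288 ± 0.156 in ABCC1 libraries, and in the third 1.65 ± 0.237 and 1.20 ± 0.251. The level was thus higher in Puro than in ABCC1 libraries in all 3 experiments, and without overlap in the first and in the second (0.523 to 0.762 against 0.122 to 0.429). Leukocyte and endothelial markers had summed levels of at most 0.593 CPM in the first experiment. They reached 12.5 and 30.4 CPM in the second and 36.2 and 62.0 in the third. In both, 4 of 4 and 2 of 2 tested were called higher than in the first, as were 71.2% and 71.6% of all genes. Where such reads come from was not tested.

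Set against each RNA, this level stayed at or below 0.333% of each of the 8 in the first experiment. For MALAT1 it stayed at or below 0.246% in every library, and for GAS5, SNHG1 and SNHG5 at or below 3.81%. For NEAT1 it was 1.25 to 12.1% in the second and 9.51 to 17.8% in the third experiment, for TUG1 0.889 to 6.94% and 8.61 to 13.6%, and for OIP5-AS1 0.523 to 4.003% and 6.51 to 15.2%. MIAT was nearest to it, with 4.43 to 32.3% and 44.9 to 60.9%. With the background level subtracted, MIAT stood at 0.946 (Puro) and 0.801 (ABCC1) CPM per kb in the first experiment, 2.07 and 2.07 in the second and 1.19 and 1.19 in the third, by library totals. With TMM a background of that size is larger than the 1.35-fold rise of MIAT in the third. The order of the third and the first experiment therefore depends on the scaling. Whether MIAT carries the same background per kb was not tested.

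**Figure D4:**
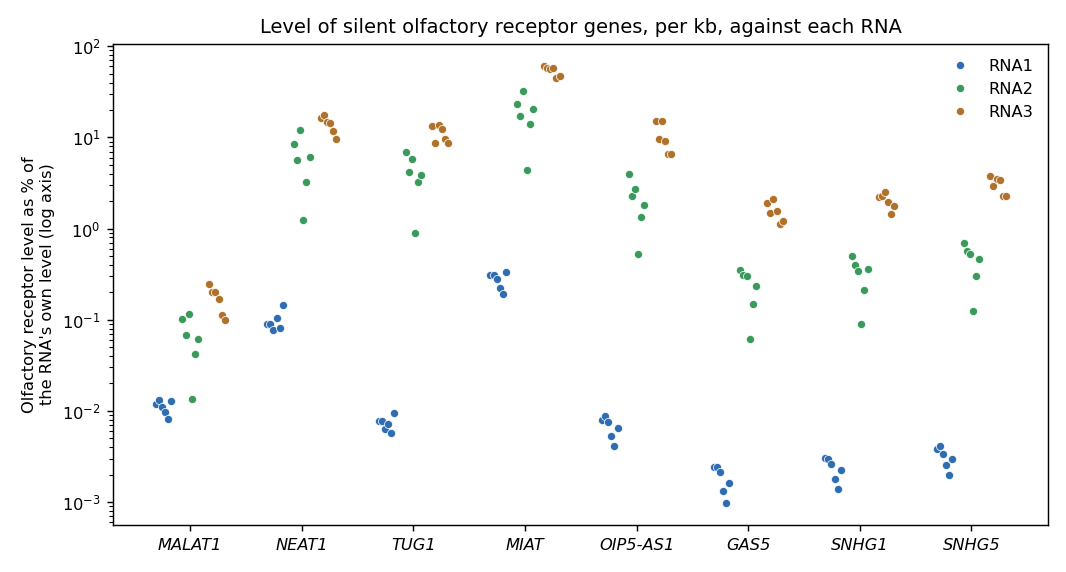
Level of 347 silent olfactory receptor genes per kb as a percentage of each RNA's own level per kb (log axis), 1 point per library, coloured by experiment. MIAT reaches 60.9% in the third experiment, and MALAT1 stays at or below 0.246% throughout.

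Within the first experiment the ABCC1 line had less of 3 nuclear RNAs and more GAS5. NEAT1 had 3.18, 3.45 and 3.45 CPM per kb in the Puro libraries and 1.91, 1.92 and 1.58 in the ABCC1 libraries (TMM within the experiment). All ABCC1 libraries lay below all Puro libraries. It fell by 0.90 ± 0.075 on the log2 scale (95% interval -1.07 to -0.74, adjusted p = 8.39e-06, edgeR), from 3.36 ± 0.160 to 1.80 ± 0.194 (SD, n = 3 each). TUG1 had 37.0, 40.3 and 42.0 CPM per kb in Puro and 28.1, 27.5 and 24.1 in ABCC1, again without overlap, and fell by 0.58 ± 0.064 (adjusted p = 6.97e-05, edgeR). MALAT1 had 24.1, 23.6 and 24.1 in Puro and 20.4, 19.2 and 17.9 in ABCC1, and fell by 0.32 ± 0.050 (adjusted p = 5.84e-04, edgeR). This was a narrow but complete separation.

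GAS5 had 119, 128 and 127 CPM per kb in the Puro libraries and 154, 160 and 142 in the ABCC1 libraries of the first experiment. All ABCC1 libraries lay above, and GAS5 was 0.28 ± 0.052 higher (adjusted p = 0.00150, edgeR). SNHG1 (0.11 ± 0.054, adjusted p = 0.131, edgeR), SNHG5 (0.022 ± 0.040, adjusted p = 0.695, edgeR) and OIP5-AS1 (0.049 ± 0.041, adjusted p = 0.379, edgeR) overlapped between the lines and were not called. MIAT had 0.918, 0.995 and 0.952 in Puro and 0.899, 0.810 and 0.686 in ABCC1, with a log2FC of -0.26 ± 0.10 (adjusted p = 0.0651, edgeR), so its groups did not overlap but the call was missed. In all 1 member was called higher and 3 lower, where 17.9% of 16995 genes were called higher and 19.7% lower. Groups without overlap were seen in 5 of the 8 members and in 50.4% of all genes.

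The calls on MALAT1, TUG1 and GAS5 in the first experiment were lost in the fit of all 18 libraries, which shares 1 spread and also has its own scaling and gene set. There NEAT1 alone was called (-0.80, adjusted p = 0.00235, edgeR), and the others had -0.22 (MALAT1), -0.48 (TUG1) and 0.38 (GAS5), with adjusted p of 0.892, 0.126 and 0.333. With the olfactory receptor level as a covariate GAS5 had 0.15 (adjusted p = 0.252, edgeR). That level was at most 0.00243% of the GAS5 level there and itself separated the lines, so covariate and line cannot be fully told apart. With no filter on low counts 6 members were called, MIAT (-0.23, adjusted p = 0.0410, edgeR) and SNHG1 (0.14, adjusted p = 0.0128, edgeR) among them. Leaving out ABCC1 replicate 3 of the first experiment brought calls on SNHG1 (0.16, adjusted p = 0.00262, edgeR) and OIP5-AS1 (0.080, adjusted p = 0.0358, edgeR), and leaving out ABCC1 replicate 1 brought one on MIAT (-0.36, adjusted p = 0.0172, edgeR), which without ABCC1 replicate 3 had -0.14 (adjusted p = 0.148, edgeR). Fibroblast markers moved with the ABCC1 line here, with 4 of 4 tested markers called higher. Of all genes, 17.9% were called higher and 19.7% lower. Their summed levels were 132 to 136 CPM in Puro and 206 to 210 in ABCC1 libraries, and 4 of the 5 fibroblast markers had a count in every library. In the second and the third experiments 0 of the 5 were called, with median log2FC of -0.14 and -0.32. Of the 8 noradrenergic markers 2 were called higher and 4 lower in the first experiment (median log2FC -0.24). The 1 leukocyte marker tested there was called lower, from summed levels of 0.316 to 0.479 CPM in Puro to 0.156 to 0.196 in ABCC1 libraries for the list. Their part in the values of the 8 RNAs was not tested.

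**Figure D5:**
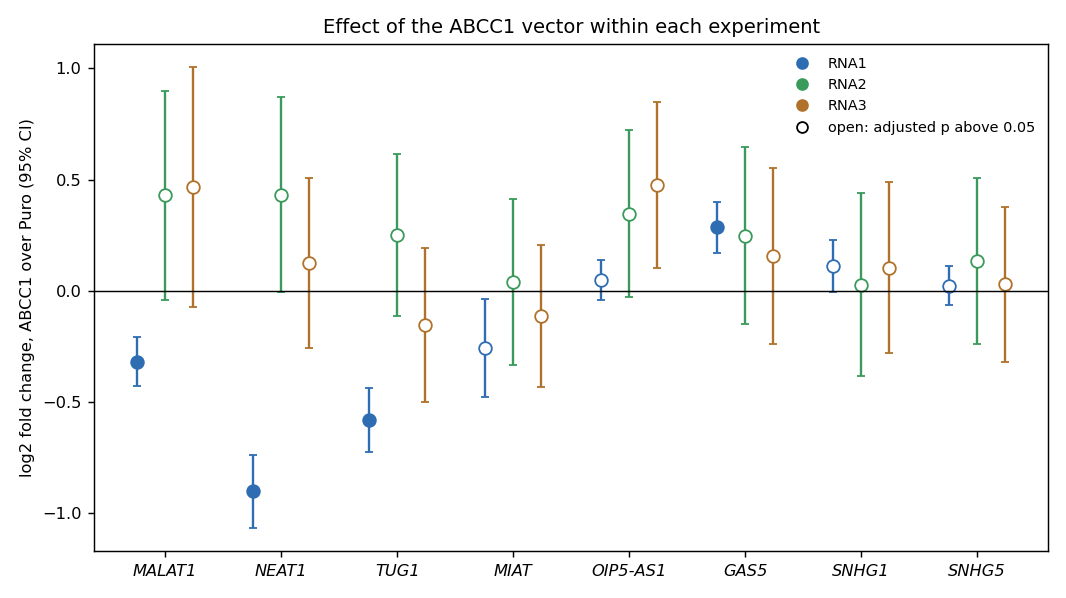
log2FC of ABCC1 over Puro with its 95% interval for each RNA in the 3 experiments (3 libraries a line), filled where the adjusted p was at most 0.05. In the first experiment NEAT1, TUG1 and MALAT1 lie below 0 and GAS5 above, the interval of MIAT, which was not called, also lies below 0, and in the second and the third every interval but that of OIP5-AS1 in the third includes 0.

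In the second and the third experiments none of the 8 RNAs was called by edgeR. In the second, 0 had an unadjusted p under 0.05 and DESeq2 also called 0, where edgeR called 1.25% of 34091 genes higher and 0.458% lower. Of edgeR's calls there, 73% were higher with TMM, 72% with RLE and 56% with TMM on protein-coding genes. In the third, 1 had an unadjusted p under 0.05 and DESeq2 called 2 (MALAT1 0.53, adjusted p = 0.0165, and OIP5-AS1 0.54, adjusted p = 0.0262), where edgeR called 2.03% of 36509 genes higher and 0.767% lower. The biological coefficient of variation was 35.3% and 19.7% in these experiments against 5.67% in the first, so the intervals were wider. In simulated counts with these spreads, the test recovered 1.5% and 45.5% of 200 genes changed 2-fold, against 98% in the first. A missing call, above all in the second experiment, thus does not show that a change was absent.

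OIP5-AS1 was the RNA whose ABCC1 libraries lay above all Puro libraries in both total RNA experiments. It had 16.5, 21.3 and 21.7 CPM per kb in Puro and 26.7, 25.1 and 23.8 in ABCC1 in the second experiment (log2FC 0.35, 95% interval -0.027 to 0.72, adjusted p = 0.268, edgeR). In the third it had 10.6, 15.25 and 10.8 in Puro and 15.7, 18.05 and 17.3 in ABCC1 (log2FC 0.48, 95% interval 0.10 to 0.85, adjusted p = 0.177, edgeR). Without Puro replicate 2 of the third experiment, its highest Puro library, the log2FC was 0.68 and called (adjusted p = 5.26e-04, edgeR). With the olfactory receptor level as a covariate it was 0.18 in the second (adjusted p = 0.971, edgeR) and 0.16 in the third experiment (adjusted p = 0.802, edgeR). That level was itself higher in Puro libraries, without overlap in the second, so covariate and line cannot be fully told apart. No overlap was seen for 1 of the 8 members in the second and 2 in the third experiment, against 29.8% and 19.5% of all genes.

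MALAT1 had 652, 721 and 505 CPM per kb in Puro and 1027, 808 and 694 in ABCC1 libraries of the second experiment, which overlapped (log2FC 0.43, 95% interval -0.041 to 0.90, adjusted p = 0.275, edgeR). In the third it had 655, 732 and 809 in Puro and 839, 1037 and 1159 in ABCC1, without overlap (log2FC 0.47, 95% interval -0.073 to 1.01, adjusted p = 0.428, edgeR). NEAT1 had log2FC of 0.43 (95% interval -0.0077 to 0.87) and 0.12 (-0.26 to 0.51), and TUG1 0.25 (-0.11 to 0.62) and -0.15 (-0.50 to 0.19). With the olfactory receptor level as a covariate, which also differs between the lines, MALAT1 had 0.059 and 0.21 and NEAT1 0.094 and 0.18. Without 1 library NEAT1 ran from 0.23 (without Puro replicate 3) to 0.64 in the second experiment and from 0.027 (without Puro replicate 2) to 0.27 in the third. Without ABCC1 replicate 1 of the second experiment TUG1 had 0.057 and MALAT1 0.27 there. GAS5, SNHG1 and SNHG5 had values between 0.027 and 0.25, with intervals that all included 0. MIAT had 0.039 and -0.11, and with the background subtracted 0.24 and 0.14.

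The effect of ABCC1 on NEAT1 differed between the experiments. In 1 fit of all 18 libraries its log2FC was higher by 1.25 ± 0.25 in the second than in the first experiment (95% interval 0.75 to 1.75) and by 1.01 ± 0.25 in the third (0.51 to 1.51), and the test of any difference among the 3 gave an adjusted p of 0.00258 in edgeR's quasi-likelihood test. NEAT1 was the 1 member called of 8, where 1.19% of 46225 genes were. TUG1 (unadjusted p = 0.0101) and MALAT1 (0.0192) did not pass after adjustment (adjusted p = 0.290 and 0.394, edgeR), while DESeq2's likelihood ratio test called both (adjusted p = 0.0248 and 0.0205). The remaining 5 had unadjusted p from 0.257 to 0.985. In simulated counts edgeR's test of differing effects recovered 7% of 200 genes changed 2-fold, so a missing call does not show equal effects.

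The proteins of the bodies that these RNAs belong to were looked up in the same tests. Of 16 paraspeckle proteins, 8 were called lower and 1 higher with ABCC1 in the first experiment (median log2FC -0.15 against 0.0074 for all genes), where 17.9% of all genes were called higher and 19.7% lower. SFPQ, a core paraspeckle protein, fell by 0.37 ± 0.041 (adjusted p = 6.52e-05, edgeR) and HNRNPK, an RNA-binding protein of the same bodies, by 0.16 ± 0.046 (adjusted p = 0.0184, edgeR). By edgeR 0 of the 16 were called in the second or the third experiment, where 4 and 3 had an unadjusted p under 0.05. Of 18 nuclear speckle proteins 8 were called higher and 0 lower in the first (median 0.082), 0 in the second (11 with an unadjusted p under 0.05, and 1.25% of all genes called higher and 0.458% lower) and 3 higher in the third (2.03% of all genes higher and 0.767% lower), including the speckle scaffold SON (0.72, adjusted p = 0.0342, edgeR), while SRRM2 had 0.24, 0.62 and 0.53 (adjusted p = 0.0142, 0.108 and 0.222, edgeR).

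Against the same shares of all genes, 17.9% higher and 19.7% lower, the other lists stood as follows in the first experiment. Of 21 other snoRNA host genes tested 9 were called higher and 1 lower with ABCC1 (median 0.21), and SNHG3 was 0.21 ± 0.062 higher (adjusted p = 0.0208, edgeR) while SNHG29 had -0.0066 (adjusted p = 0.943, edgeR). In the second and the third experiments 1 and 2 of 22 were called higher and none lower, where 1.25% and 2.03% of all genes were called higher. Of 15 nonsense-mediated decay factors 5 were called higher and 3 lower in the first, among them SMG5 (0.33, adjusted p = 6.16e-04, edgeR) and CASC3 (0.12, adjusted p = 0.0348, edgeR). The 5′TOP coding mRNAs had 1 of 20 called, lower, with EEF2 at -0.0040 and EEF1A1 at 0.11 (adjusted p = 0.963 and 0.226, edgeR). Of 16 other long noncoding RNAs 3 were called higher and 5 lower, with MEG3 at -0.22 (adjusted p = 0.00820, edgeR) and NORAD at -0.0071 (adjusted p = 0.921, edgeR).

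The genes most like each RNA were found by Pearson's r of log2 CPM over the 18 libraries, centred within each experiment, among 14210 genes with at least 1 CPM in each experiment. These are descriptions, since the points share libraries, depth and background. OIP5-AS1 was most like SNW1 (0.985) and HNRNPF (0.983), a spliceosome component and an RNA-binding protein, and SNHG5 was most like RPL23 (0.965), a ribosomal protein, and DCUN1D4 (0.943). TUG1 was most like STX6 (0.951) and RBM25 (0.930), GAS5 like DCLRE1C (0.933) and RPL37 (0.917), and MALAT1 like KHDC4 (0.912) and TNKS1BP1 (0.911). SNHG1 was most like 2 other snoRNA hosts, SNHG8 and SNHG12 (0.884 each), NEAT1 like CUTALP (0.884) and PCDHGA11 (0.836), and MIAT like CCDC149 (0.858) and MEG3 (0.851). Among the members, MALAT1 and NEAT1 had an r of 0.745. The 3 hosts had 0.673 to 0.787 with each other, but SNHG1 and SNHG5 had 0.941 within the second experiment and 0.235 within the third (6 libraries each).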

How the data were processed

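The authors generated FASTQ files with bcl2fastq 2.18, aligned the reads with STAR 2.7.3a, and counted read pairs on merged exons of each GRCh37 gene with featureCounts from Subread 2.0.0, without strand. They deposited raw counts, not normalized, which were used as they were. The 92 spike-in rows were left out. Gene symbols came from a table that matched 51996 of 57905 IDs. The members and all gene lists were chosen with earlier results of these data known. Named were the 8 members, the 2 genes of highest mean CPM of each list, and the 2 genes most like each member.

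Each experiment was fitted separately with edgeR 4.0.16 (R 4.3.3): filterByExpr at a minimum count of 10, TMM scaling, robust quasi-likelihood F-tests, two-sided, Benjamini-Hochberg adjustment over all genes, and a call at 0.05 or below. Contrasts between experiments and the test of differing ABCC1 effects came from 1 fit of all 18 libraries. Exact permutation tests of 3 against 3 libraries cannot go below 0.1 and were not used. Samples were grouped by title. Replicates differed by more than sampling noise (chi-square per degree of freedom 1.53 or more) and each was counted once. The study plated the lines weekly, but the labels tie no library to a week, so p-values measure the spread between libraries of the same selected lines. Depth was 8866994 to 57937653 counts, and counting intervals were not printed. Alternatives were DESeq2 1.42.0, other scalings and filters, blocks, a background covariate and leaving out libraries. The scripts were tested on simulated data with 200 genes changed 2-fold. The ABCC1 comparison recovered 98% of them in the first experiment, 1.5% in the second and 45.5% in the third. The test of differing ABCC1 effects recovered 7%, and the second against the first experiment 91.5%. GENCODE release 29 supplied transcript sequences. A further sequence is not reported here.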

Additional observations from a re-analysis of the deposited data

Results flagged for a closer look

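The effect of ABCC1 on NEAT1 differed between the 3 experiments, by the test of the difference itself in 1 fit of all 18 libraries (adjusted p = 0.00258, edgeR's quasi-likelihood test). In this fit its log2FC was -0.80 in the first experiment, 0.45 in the second and 0.21 in the third, with all ABCC1 libraries below all Puro libraries in the first and overlapping groups in the others. Over the alternatives the adjusted p ran from 2.35e-04 to 0.0255. The olfactory receptor background was 1.25 to 17.8% of the level of NEAT1 in the second and the third experiments and at most 0.145% in the first, and the library kit changed between the same experiments. Their part in the difference was not tested.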

How the results depend on the processing

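Of the counts of called members, 129 alternatives stayed within 1.5 times the reported count and 13 did not. In the first experiment 1 member was called in place of 4 with the spread shared across 18 libraries, a fit that also has its own scaling and gene set. In the third, 2 were called by DESeq2, 1 with TMM from protein-coding genes, and 0 to 1 without 1 library. In the second against the first experiment 8 were called in place of 5 by DESeq2, with RLE, with the protein-coding total and with at least 10 counts in every library. In the third against the second 5 were called in place of 8 by DESeq2, with RLE and in empty vector libraries alone. DESeq2 called 3 members in place of 1 for differing ABCC1 effects. Apart from the fewer libraries, the cause was not tested.

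The replicate numbers did not pair the libraries (correlations of same-numbered libraries -0.138 to 0.0974). With the replicate block 1 member was called in the third experiment (OIP5-AS1, adjusted p = 0.0440, edgeR), and no other count of called members left the range of 1.5 times.

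Signs turned only for values that were not called, except in the third against the second experiment. There the protein-coding total gave 0.23 (MALAT1), 0.30 (NEAT1), 0.17 (TUG1) and 0.034 (MIAT), and subtracting the protein-coding median, an alternative chosen after seeing the data, gave 0.020 for NEAT1. Against all protein-coding genes tested instead of the expressed ones, MALAT1 was 27.5-fold higher in the second than in the first experiment. With the olfactory receptor covariate OIP5-AS1 had -0.028 and SNHG5 -0.018 in the first experiment, TUG1 -0.17, MIAT -0.31, SNHG1 -0.17 and SNHG5 -0.0072 in the second, and GAS5 -0.022 and SNHG5 -0.23 in the third. That covariate itself differs between the lines, so these values do not separate background from line. In the second experiment MIAT had -0.048 and SNHG1 -0.059 with protein-coding TMM, and -0.091 and -0.10 with at least 10 counts. Without 1 library the values ran from -0.13 to 0.20 (MIAT) and -0.065 to 0.20 (SNHG1) in the second experiment, from -0.021 to 0.17 (SNHG5) and -0.20 to 0.034 (TUG1) in the third, and from -0.034 to 0.098 (SNHG5) between the second and the first.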
